A study of Homo sapiens with 24 samples.

Results

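The genes of cholesterol and fatty acid synthesis were followed in SW872 cells, a human liposarcoma line, that stably carried TAZ, YAP, CAMTA1 or TFE3 constructs. The set held 34 genes of the 60279 listed in each count table. They were chosen by name for their role in this pathway, with earlier results of these data known, and were looked up by Ensembl identifier. All 34 were found, and all 34 were among the 19997 genes that passed a minimum mean of 5 counts over the libraries. They comprise 5 regulators, 19 genes of the cholesterol branch, 8 genes of the fatty acid branch and 2 genes of sterol efflux.

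PolyA RNA was sequenced from 24 libraries in 8 groups of 3. Each group carried a pBabeNeo retroviral vector and was a pooled line selected with G418, and the lines were made in triplicate. EV carried the empty vector. TAZ-CAMTA1 and YAP-TFE3 carried the fusion proteins of epithelioid hemangioendothelioma, a vascular sarcoma. TAZ4SA and YAP5SA carried forms of TAZ and YAP in which serines phosphorylated by the LATS kinases were replaced with alanine, and TFE3 carried full-length TFE3. These 6 groups were held at confluence for 48 h before collection. CAMTA1 carried full-length CAMTA1 and was collected before confluence, so it was compared with EVsub, empty-vector cells that were also collected before confluence. Every construct was added to the endogenous genes of this single line.

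Cells make cholesterol and fatty acids from acetyl-CoA, and both branches are switched on by the sterol regulatory element-binding proteins (SREBPs). SREBPs are held in the endoplasmic reticulum with their escort SCAP by the INSIG proteins while sterol is plentiful, and travel to the Golgi for cleavage when it is scarce. SREBF2 encodes the SREBP best known for cholesterol genes, SREBF1 encodes forms best known for fatty acid genes, and surplus cholesterol leaves the cell through ABC transporters that are targets of the oxysterol-sensing LXR receptors.

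Some promoter sequences are printed here because SREBPs act from DNA close to the start site, usually beside the partner factors NF-Y, which reads CCAAT, and SP1, which reads GC-rich boxes. RefSeq gave a promoter of 300 bases (250 before and 50 after the start; GRCh38.p14) for 29 of the 34 genes, and both strands were searched for each motif. CCAAT was held by 13 of the 16 cholesterol-branch promoters available (81.25%) and by 3 of the 7 fatty acid promoters (42.9%), beside 35.7% of all 27305 promoters. The GC box GGGCGG was held by 26 of the 29 promoters, beside 44.6% of all. The E-box CACGTG was held by 6 of 29, beside 7.43% of all, and its extended form TCACGTGA, which contains the E-box, by INSIG1 alone, beside 1.04% of all. The classical sterol regulatory element core TCACNCCAC was held by SREBF2 alone, beside 1.15% of all promoters. These are matches of letters, binding was not measured, and no match says only that the letters are not in this window.

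The upstream stretches of MSMO1 (chr4:165327419-165327666, + strand) and SCD (chr10:100346983-100347232, + strand), a sterol and a fatty acid enzyme described below, are shown with every CCAAT box in capitals (ATTGG where it reads on the other strand). The stretches of IDI1 and TM7SF2, also among the strongest changes in EVsub, are not printed. That of IDI1 (chr10:1056705-1056954, - strand), which rose there, held no CCAAT box, E-box or sterol regulatory element core. It does not adjoin the GENCODE start of IDI1 (chr10:1049119), and its promoter window overlaps the gene WDR37. The missing letters therefore say nothing of the DNA beside that GENCODE start. The stretch of TM7SF2, which fell in EVsub, held a CCAAT box. SREBF2 (chr22:41832855-41833104, + strand) was added after its values were seen, because it held the only sterol regulatory element core, which is in capitals with its CCAAT box.
MSMO1: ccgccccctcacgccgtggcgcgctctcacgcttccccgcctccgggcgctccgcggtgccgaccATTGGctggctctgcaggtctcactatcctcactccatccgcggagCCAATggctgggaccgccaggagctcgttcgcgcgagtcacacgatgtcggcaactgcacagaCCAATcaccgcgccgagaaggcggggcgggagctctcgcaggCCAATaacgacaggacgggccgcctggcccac
SCD: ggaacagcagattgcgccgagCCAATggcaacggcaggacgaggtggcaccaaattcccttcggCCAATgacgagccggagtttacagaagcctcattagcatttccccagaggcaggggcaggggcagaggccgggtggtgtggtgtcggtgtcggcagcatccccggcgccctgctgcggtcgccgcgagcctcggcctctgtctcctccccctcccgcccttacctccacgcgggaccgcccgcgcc
SREBF2: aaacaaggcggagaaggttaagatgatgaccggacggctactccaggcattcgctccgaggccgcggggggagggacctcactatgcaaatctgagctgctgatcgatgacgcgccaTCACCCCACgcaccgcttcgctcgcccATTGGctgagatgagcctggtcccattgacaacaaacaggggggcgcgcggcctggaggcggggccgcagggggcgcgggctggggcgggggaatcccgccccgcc
Short stretches are enough for HMGCS1 (chr5:43313551-43313580, - strand, and chr5:43313496-43313525, - strand), which held 2 CCAAT boxes, and for INSIG1 (chr7:155297811-155297840, + strand), which held the extended E-box, with the core E-box in capitals.
HMGCS1 distal: tagtttccttttgATTGGtagaagccggac
HMGCS1 proximal: tctaccggccgcgATTGGctgtgggagcca
INSIG1: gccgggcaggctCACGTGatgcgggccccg

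The tables held 19700277 to 35287476 counts per library, and the 34 genes took 0.433% to 0.727% of them. Defining adipocyte markers were at or near 0 (ADIPOQ had no count in any library, LEP at most 2 and FABP4 at most 23), while PPARG lay between 27.2 and 100 CPM, and VIM, a mesenchymal marker, lay between 464 and 1154 CPM. The summed level of the 8 adipocyte markers, mostly PPARG and LPL, was 149 to 223 CPM in EV, 64.2 to 74.5 CPM in libraries labelled TAZ4SA, 118 to 132 CPM in YAP5SA and 304 to 370 CPM in YAP-TFE3. The summed level of 5 epithelial markers, nearly all KRT8 and KRT18 with EPCAM and CDH1 at most at 1.86 and 1.85 CPM, was 198 to 215 CPM in EV, 1888 to 2155 CPM in libraries labelled TAZ4SA and 3013 to 4024 CPM in YAP5SA. It was 415 to 445 CPM in EVsub. The summed level of 4 endothelial markers, mostly CDH5 and KDR, was 79.8 to 119 CPM in EV, 31.6 to 52 CPM in libraries labelled TAZ4SA, 13.2 to 18.2 CPM in YAP5SA, 35.6 to 52.8 CPM in YAP-TFE3 and 32.1 to 47.2 CPM in EVsub. The adipocyte sum was 205 to 237 CPM in EVsub and 108 to 113 CPM in CAMTA1. The part of these marker lists in the results below was not tested. In bulk RNA, fewer cells of a type and less RNA per cell cannot be told apart. Against their controls, CAMTA1 rose in TAZ-CAMTA1 and CAMTA1 (2.75 and 2.43 on the log2 scale), TFE3 in YAP-TFE3 and TFE3 (1.25 and 1.49) and YAP1 in YAP5SA (0.99). Smaller rises were also called in groups without the construct. These were TFE3 in libraries labelled TAZ4SA (0.54) and YAP5SA (0.64), CAMTA1 in YAP-TFE3 (0.28), and YAP1 in TAZ-CAMTA1 (0.40) and EVsub (0.27). YAP1 rose in YAP-TFE3 (0.26, edgeR adjusted p = 0.0341). It averaged 153 CPM there, no higher than in TAZ-CAMTA1 (168 CPM) or EVsub (154 CPM), so the YAP part of that fusion did not stand out. WWTR1, which encodes TAZ, averaged 204 ± 20.3 CPM (SD, n = 3) in EV and 181 ± 2.15 CPM in TAZ-CAMTA1 (log2 fold change -0.17, adjusted p = 0.236). It averaged 134 ± 0.539 CPM in the libraries labelled TAZ4SA (-0.60). A TAZ construct was thus visible in this count in neither group, and the label TAZ4SA was not borne out by it. WWTR1 also fell in YAP5SA (-1.57) and YAP-TFE3 (-0.70), which carried no TAZ construct, so a fall was not particular to the label TAZ4SA. The paper lists TAZ4SA among the Flag-tagged proteins it blotted in SW872 cells.

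One library stood apart, in these genes and beyond them. YAP-TFE3 replicate 3 had the highest level of its group for 18 of the 19 cholesterol-branch genes and for 8 of the 8 fatty acid genes, whereas it was the highest for 41.4% of all genes tested. Its level was 1.59 times the mean of the other two YAP-TFE3 libraries at the median of the cholesterol branch, and 1.00 times at the median of all genes. The scaling of the libraries tends to keep the latter near 1, so it does not show that this library was ordinary elsewhere. Across genes, replicate 3 differed from replicates 1 and 2 by 83.1 and 65.4 times sampling noise (chi-square over its degrees of freedom). Replicates 1 and 2 differed by 12.8 times, and no pair in another group by more than 30.1. Its mitochondrial share of counts was 5.12% against 3.63% and 3.79%, and its TFE3 level was 228 CPM against 296 and 325 CPM. What set it apart was not tested, and the YAP-TFE3 fold changes of these genes are given below with and without it. All 24 libraries share 1 estimate of the spread per gene, so this library also entered the SE and adjusted p of comparisons without YAP-TFE3. In YAP-TFE3 against EV, the SE of INSIG1 was 0.27 with it and 0.145 without it. That of HMGCS1 was 0.247 and 0.134.

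In confluent empty-vector cells all 34 genes were detected, and the levels spanned a wide range. Per kilobase of exon, SCD, the desaturase that makes oleate, led with 149 ± 7.87 CPM per kb (SD, n = 3), followed by ACLY, which makes cytosolic acetyl-CoA, at 72.8 ± 4.69 and the squalene synthase FDFT1 at 57.6 ± 6.09. The lowest levels per kilobase were those of CYP51A1 at 1.06 ± 0.0697, HSD17B7 at 2.18 ± 0.147 and the efflux transporter ABCA1 at 2.93 ± 0.29. The count of CYP51A1 is uncertain, since its exons overlap 4 annotated genes, 2 of them on the same strand. In all, 17 of the 34 genes overlap an exon of another gene, among them FADS1 with FADS2 and TM7SF2 with VPS51, and 5 have named pseudogenes (IDI1, FDPS, HSD17B7, CYP51A1 and SCD), so part of their reads could be assigned elsewhere.

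Sub-confluent cells expressed the cholesterol pathway at a higher level than confluent ones. Of the 34 genes, 23 were higher and 2 lower in EVsub than in EV (edgeR, adjusted p under 0.05), 73.5% of them against a background of 36.8% of all genes tested. The cholesterol branch accounted for 15 of the higher genes and 1 of the lower, and its median log2 fold change was 0.74, beside -0.020 over all genes. The fatty acid branch followed with 6 of 8 higher, none lower and a median of 0.47. In 29 of the 34 genes the 3 EVsub libraries did not overlap the 3 EV libraries, as in 52.5% of all genes. With the compared groups alone, which leave out YAP-TFE3 replicate 3, 29 genes were called (85.3%, beside 42.3% of all genes). Mitochondrial counts also moved with density, from 5.09% to 5.43% in EV to 3.20% to 3.59% in EVsub, and their part in the result was not tested.

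**Figure D1:**
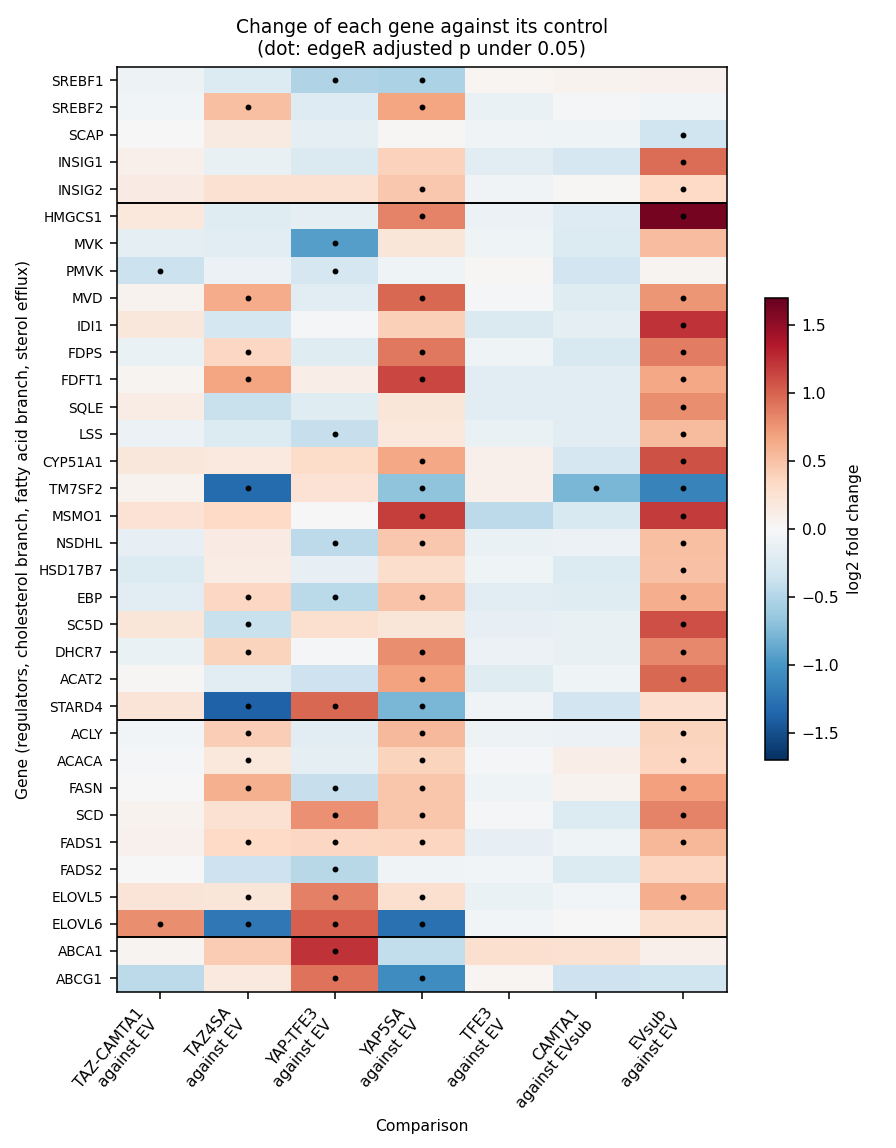
The log2 fold change of each of the 34 genes (rows, in the order regulators, cholesterol branch, fatty acid branch, sterol efflux, with lines between them) in the 7 comparisons with an empty-vector control (columns), red for higher and blue for lower, with a dot where the edgeR adjusted p was under 0.05. The EVsub column is red down most of both synthesis branches, YAP5SA is mostly red with blue dotted cells at SREBF1, TM7SF2, STARD4, ELOVL6 and ABCG1, and the TFE3 column has no dot.

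Among confluent cells, YAP5SA had the most genes that rose. In YAP5SA against EV, 18 genes were higher and 5 lower, so that 23 of 34 (67.6%) were called against 44.3% of all genes. The cholesterol branch had 10 higher and 2 lower with a median of 0.45, and the fatty acid branch 6 higher and 1 lower with a median of 0.37, beside -0.036 over all genes. With scaling to total counts, which shifted the median of all genes by -0.18, the split was 13 higher and 7 lower. That fit called 15.7% of all genes higher and 34.2% lower. The mitochondrial share of counts was 3.87% to 4.35%, wholly below EV, and its part in the result was not tested.

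In libraries labelled TAZ4SA, 11 genes were higher and 4 lower than in EV, 44.1% of the set against a background of 49.2%, so the share called was not above that of all genes. The cholesterol branch was split, with 5 higher, 3 lower and a median of -0.094, while 5 of the 8 fatty acid genes were higher, 1 was lower and the median was 0.23. The directions depended on the scaling. With scaling to total counts, which shifted the median of all genes by -0.20, 5 genes were higher and 11 lower, and the medians of the branches became -0.29 and 0.031. That fit called 16.8% of all genes higher and 36.6% lower. Without TAZ4SA replicate 2, 9 of the 34 genes were called (26.5%, beside 42.7% of all genes), and without EV replicate 1, 10 were (29.4%, beside 41.2%). The mitochondrial share of these libraries, 4.11% to 4.73%, was also below EV, and its part was not tested.

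In YAP-TFE3, the elongases ELOVL5 and ELOVL6 and both genes of sterol efflux rose, and 5 of the 19 cholesterol genes fell. Against EV, 7 genes were higher and 8 lower, or 44.1% against 48.2% of all genes, so the share called was not above that of all genes. The cholesterol genes called lower were 26.3% of the branch, beside 22.6% of all genes. The number of genes called lower was 4 without EV replicate 3, without YAP-TFE3 replicate 1 or with the compared groups alone, and 5 without YAP-TFE3 replicate 2. The cholesterol branch had 1 higher and 5 lower with a median of -0.15, and the fatty acid branch had 4 higher and 2 lower with a median of 0.093, beside -0.011 over all genes. Without replicate 3, 29 of the 34 genes (85.3%, beside 49.8% of all genes in that fit) were called, 7 higher and 22 lower, and the cholesterol branch had 1 higher and 15 lower with a median of -0.46, while the fatty acid branch had 4 higher and 4 lower with a median of 0.0083. By library, the mean log2 difference of the 19 cholesterol genes from EV was -0.41, -0.36 and 0.32. With scaling to total counts and all 3 libraries, the split was 7 higher and 13 lower, in a fit that called 21.6% of all genes higher and 27.7% lower.

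For the other 3 constructs, few of the 34 genes were called. In TAZ-CAMTA1 against EV, 2 genes were called, ELOVL6 higher and PMVK lower, which is 5.88% of the set against 4.98% of all genes. In TFE3 against EV none of the 34 was called by edgeR or by DESeq2, and none had an unadjusted p under 0.05, against 0.035% of all genes called (7 genes) and 757 genes with an unadjusted p under 0.05. The fold changes of the 34 genes ranged from -0.45 to 0.27 there, with SE of 0.073 to 0.27, so differences within those errors were not detectable. Those SE carry the spread of YAP-TFE3 replicate 3. With the compared groups alone, which leave it out, still none of the 34 was called, beside 0.01% of all genes. In CAMTA1 against EVsub, 1 gene was called, TM7SF2, or 2.94% against 1.83% of all genes. With the compared groups alone, 3 were called (8.82%, beside 3.24% of all genes). All 19 cholesterol genes had a negative estimate in that comparison, with a median of -0.21, beside -0.0081 over all genes, and the mitochondrial share was 4.07% to 4.71%, above EVsub, and its part was not tested. The call of TM7SF2 was lost without CAMTA1 replicate 1, CAMTA1 replicate 2 or any 1 of the EVsub replicates.

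**Figure D2:**
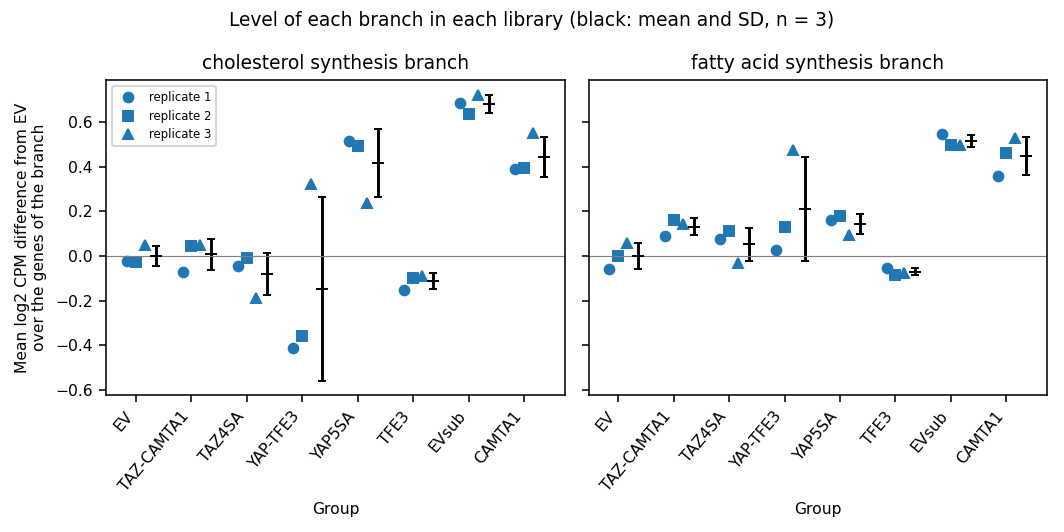
The mean log2 CPM difference from the EV mean over the 19 cholesterol genes (left) and the 8 fatty acid genes (right), per library, by group, with a symbol for each replicate and the group mean and SD (n = 3) in black. The EVsub libraries lie between 0.64 and 0.72 on the left, the CAMTA1 libraries between 0.39 and 0.55, and the third YAP-TFE3 library lies at 0.32, apart from the other two below -0.35.

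Of the 5 regulators, INSIG1 and INSIG2 rose and SCAP fell in sub-confluent cells. INSIG1 (ENSG00000186480, chr7:155297776-155310235, + strand), the sterol-sensing retention protein that is itself an SREBP target, was measured at 122, 114 and 124 CPM in EV and 236, 226 and 235 CPM in EVsub. Every EVsub library was above every EV library, and INSIG1 rose (log2 fold change 0.95 ± 0.27 (SE), adjusted p = 0.00799). Its level in the CAMTA1 libraries was 163, 192 and 218 CPM, lower than in EVsub in each library but not past the threshold (-0.29, adjusted p = 0.778). The paralog INSIG2 rose in EVsub (0.34, adjusted p = 0.0289) and in YAP5SA (0.46, adjusted p = 0.00301), and both calls were lost with scaling to total counts, that in EVsub also without EV replicate 2 or 3 or EVsub replicate 1 or 3.

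In YAP-TFE3, INSIG1 had the highest ratio of the third library to the mean of the other two, 3.20. It stood at 55.9, 61 and 187 CPM, with the first 2 libraries below and the third above all EV libraries, and the 3-library fold change was -0.24, adjusted p = 0.482. Without replicate 3, INSIG1 was lower than in EV (-1.04, adjusted p = 2.62e-06).

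SREBF2 (ENSG00000198911, chr22:41833105-41907306, + strand), the cholesterol-branch factor, was higher in libraries labelled TAZ4SA and in YAP5SA. It was measured at 289.7, 311 and 328 CPM in EV, 468, 459.9 and 391 CPM in libraries labelled TAZ4SA and 513, 522 and 439 CPM in YAP5SA. All TAZ4SA and YAP5SA libraries lay above the highest EV library, and SREBF2 rose in libraries labelled TAZ4SA (log2 fold change 0.51 ± 0.11 (SE), adjusted p = 0.000789) and in YAP5SA (log2 fold change 0.67 ± 0.11 (SE), adjusted p = 4.57e-05). In EVsub, SREBF2 stood at 288, 298 and 314 CPM, overlapping EV (-0.047, adjusted p = 0.782).

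SREBF1, the fatty acid factor, took the other direction and fell in YAP5SA (-0.54, adjusted p = 0.000846) and in YAP-TFE3 (-0.52, adjusted p = 0.00102; without replicate 3, -0.46). Its range was 120.1 to 129 CPM in EV and 78.3 to 101 CPM in YAP5SA. SCAP, the escort, was measured at 108, 119.6 and 135 CPM in EV and 89.9, 95.8 and 99.8 CPM in EVsub. The EVsub libraries were all below the lowest EV library, and SCAP fell (log2 fold change -0.34 ± 0.089 (SE), adjusted p = 0.00406), while it was called in no other comparison with a control.

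HMGCS1 and IDI1, on the way from acetyl-CoA to farnesyl diphosphate, had the highest fold changes of the set in sub-confluent cells. HMGCS1 (ENSG00000112972, chr5:43287470-43313512, - strand), the cytosolic HMG-CoA synthase at the head of the mevalonate pathway, was measured at 169.7, 150.1 and 152 CPM in EV and 518, 475 and 466 CPM in EVsub. The groups were far apart, and HMGCS1 rose about 3.09-fold (log2 fold change 1.63 ± 0.25 (SE), adjusted p = 4.03e-05). IDI1, the isopentenyl diphosphate isomerase, followed, with 39.5, 34 and 31.4 CPM in EV and 88.6, 74.4 and 82.3 CPM in EVsub. Again no library overlapped (log2 fold change 1.22 ± 0.20 (SE), adjusted p = 5.58e-05), although IDI1 has 3 named pseudogenes that could share reads.

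The remaining genes of this stretch had smaller estimates. ACAT2, the cytosolic thiolase that makes acetoacetyl-CoA, rose in EVsub (0.98), as did the farnesyl diphosphate synthase FDPS (0.87) and the mevalonate diphosphate decarboxylase MVD (0.74). The mevalonate kinase MVK had an estimate of 0.52, adjusted p = 0.0543. The phosphomevalonate kinase PMVK, between these enzymes in the pathway, had an estimate of 0.045, adjusted p = 0.741. ACAT2 overlaps SOD2 and TCP1 on the opposite strand.

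In YAP5SA, 4 genes of this stretch rose. MVD rose by 0.97, adjusted p = 5.54e-05, FDPS by 0.90, adjusted p = 2.24e-05, HMGCS1 by 0.84, adjusted p = 0.00814 and ACAT2 by 0.68, adjusted p = 0.00153 on the log2 scale. HMGCS1 stood at 316, 275 and 253 CPM in YAP5SA, above all EV libraries and below all EVsub libraries. IDI1 had an estimate of 0.40, adjusted p = 0.101. In libraries labelled TAZ4SA, MVD (0.64, adjusted p = 0.00331) and FDPS (0.36, adjusted p = 0.0457) rose while HMGCS1 was at 134, 152 and 123 CPM and was not called (-0.21, adjusted p = 0.509), and the FDPS call was lost with scaling to total counts, with DESeq2 or its size factors, with a replicate block, and without EV replicate 1 or 2 or TAZ4SA replicate 1 or 2.

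MVK had the lowest fold change of the set in YAP-TFE3. MVK (ENSG00000110921, chr12:109573255-109598125, + strand) was measured at 35.7, 33.9 and 43.7 CPM in EV and 13.9, 13.3 and 31.5 CPM in YAP-TFE3. The first 2 YAP-TFE3 libraries were well under the EV range and the third just below its lowest library, and MVK fell (log2 fold change -0.94 ± 0.22 (SE), adjusted p = 0.000851; without replicate 3, -1.47, adjusted p = 3.63e-08). HMGCS1 was at 88.1, 85.7 and 251 CPM there, with the third library above every EV library, so the 3-library estimate was -0.15, adjusted p = 0.648 and that without replicate 3 was -0.86, adjusted p = 1.2e-05. PMVK fell in YAP-TFE3 (-0.29, adjusted p = 0.0127; without replicate 3, -0.24, adjusted p = 0.0459), and that call was lost without EV replicate 3, with no filter beyond 1 count and with the compared groups alone.

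PMVK was also the cholesterol gene called in TAZ-CAMTA1. It was measured at 27.8, 28.9 and 30.6 CPM in EV and 23.4, 23 and 21.3 CPM in TAZ-CAMTA1. All TAZ-CAMTA1 libraries were below the lowest EV library, and PMVK fell (log2 fold change -0.36 ± 0.093 (SE), adjusted p = 0.0199). The call was lost without EV replicate 2 or 3 and without TAZ-CAMTA1 replicate 2 or 3, and with no filter beyond 1 count.

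Squalene formation and the first sterol steps rose in sub-confluent cells, and FDFT1 also in libraries labelled TAZ4SA and in YAP5SA. FDFT1, the squalene synthase that commits carbon to sterols, was measured at 263, 291 and 324 CPM in EV, 502, 492 and 409 CPM in libraries labelled TAZ4SA and 704, 670.2 and 556 CPM in YAP5SA. No TAZ4SA or YAP5SA library overlapped EV, and FDFT1 rose in libraries labelled TAZ4SA (log2 fold change 0.68 ± 0.16 (SE), adjusted p = 0.00103), in YAP5SA (log2 fold change 1.14 ± 0.16 (SE), adjusted p = 2.84e-06) and in EVsub (log2 fold change 0.66 ± 0.16 (SE), adjusted p = 0.00228). The squalene epoxidase SQLE, a rate-limiting oxygenase, rose in EVsub (0.79, adjusted p = 0.00061) and was not called in YAP5SA (0.21, adjusted p = 0.311). The lanosterol synthase LSS rose in EVsub (0.54, adjusted p = 0.00535) and fell in YAP-TFE3 (-0.40, adjusted p = 0.0276; without replicate 3, -0.63), a call that was lost with the compared groups alone and without EV replicate 2 or 3 or YAP-TFE3 replicate 1 or 2.

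MSMO1 and TM7SF2, both at the steps that strip methyl groups from lanosterol or follow directly, moved in opposite directions. MSMO1 (ENSG00000052802, chr4:165327667-165343164, + strand), the methylsterol oxidase whose upstream stretch is printed above with 4 CCAAT boxes, was measured at 56.6, 52.7 and 56.4 CPM in EV, 150.2, 112 and 111 CPM in YAP5SA and 133, 114 and 131 CPM in EVsub. Both groups lay wholly above EV, and MSMO1 rose in YAP5SA (log2 fold change 1.17 ± 0.23 (SE), adjusted p = 0.000185) and in EVsub (log2 fold change 1.19 ± 0.23 (SE), adjusted p = 0.000303). In TFE3, MSMO1 stood at 32.4, 40.6 and 48.2 CPM, below every EV library, but was not called (-0.45, adjusted p = 1).

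TM7SF2 (ENSG00000149809, chr11:65111845-65116384, + strand), a sterol C14 reductase of the same stretch, went the other way. It was measured at 70.6, 83.8 and 107 CPM in EV, 35.8, 36.9 and 33.1 CPM in libraries labelled TAZ4SA, 56.1, 56.9 and 49.5 CPM in YAP5SA and 38.3, 43.2 and 37.5 CPM in EVsub. All 9 of those libraries were below the lowest EV library, and TM7SF2 fell in libraries labelled TAZ4SA (log2 fold change -1.30 ± 0.19 (SE), adjusted p = 3.99e-06), YAP5SA (log2 fold change -0.69 ± 0.18 (SE), adjusted p = 0.00405) and EVsub (log2 fold change -1.14 ± 0.19 (SE), adjusted p = 7.24e-05). CAMTA1 cells had 16.7, 22.2 and 31.1 CPM, below every EVsub library (log2 fold change -0.77 ± 0.19 (SE), adjusted p = 0.0327). The exons of TM7SF2 overlap those of VPS51 on the same strand, so reads of the pair could be assigned to either. LBR, the other enzyme with this reductase activity, which is not in the set and was added after its values were seen, rose in EVsub (0.48, adjusted p = 0.000373) and had an estimate of -0.10, adjusted p = 0.4 in libraries labelled TAZ4SA.

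The other genes on the way from lanosterol to cholesterol rose in sub-confluent cells, where TM7SF2 fell, as given above. CYP51A1, the lanosterol demethylase, rose by 1.09, the sterol desaturase SC5D by 1.10, the reductase DHCR7, which makes cholesterol from its last precursor, by 0.82, the isomerase EBP by 0.61, the dehydrogenase NSDHL by 0.51 and the ketoreductase HSD17B7 by 0.50 on the log2 scale, each with an adjusted p under 0.05. The HSD17B7 call was lost without EV replicate 1 or EVsub replicate 1. In YAP5SA, CYP51A1 (0.65), DHCR7 (0.79), EBP (0.48) and NSDHL (0.45) rose, EBP not with scaling to total counts, while HSD17B7 (0.30, adjusted p = 0.139) and SC5D (0.20, adjusted p = 0.296) were not called. In libraries labelled TAZ4SA, DHCR7 (0.37) and EBP (0.36) rose and SC5D fell (-0.38, adjusted p = 0.0471). Those 3 calls were each lost without EV replicate 1, TAZ4SA replicate 1 or TAZ4SA replicate 2. The DHCR7 and EBP calls were also lost without EV replicate 2 and with scaling to total counts, that of EBP without EV replicate 3, and that of SC5D with no filter beyond 1 count. In YAP-TFE3, EBP (-0.46; without replicate 3, -0.68) and NSDHL (-0.44; without replicate 3, -0.62) fell, and the EBP call was lost without YAP-TFE3 replicate 1.

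STARD4 (ENSG00000164211, chr5:111496033-111512590, - strand), a carrier that moves cholesterol between membranes and belongs to the same SREBP program, fell in libraries labelled TAZ4SA and in YAP5SA and rose in YAP-TFE3. It was measured at 70, 58.8 and 51.3 CPM in EV, 21.9, 22.8 and 24.6 CPM in libraries labelled TAZ4SA, 37.9, 32.2 and 35.2 CPM in YAP5SA and 121, 95.3 and 139 CPM in YAP-TFE3. TAZ4SA and YAP5SA lay wholly below EV, and YAP-TFE3 wholly above it, with or without replicate 3. STARD4 fell in libraries labelled TAZ4SA (log2 fold change -1.38 ± 0.14 (SE), adjusted p = 2.15e-08) and YAP5SA (log2 fold change -0.78 ± 0.14 (SE), adjusted p = 6.82e-05), and rose in YAP-TFE3 (log2 fold change 0.98 ± 0.14 (SE), adjusted p = 2.07e-06; without replicate 3, 0.84). In EVsub it had an estimate of 0.28, adjusted p = 0.11.

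**Figure D3:**
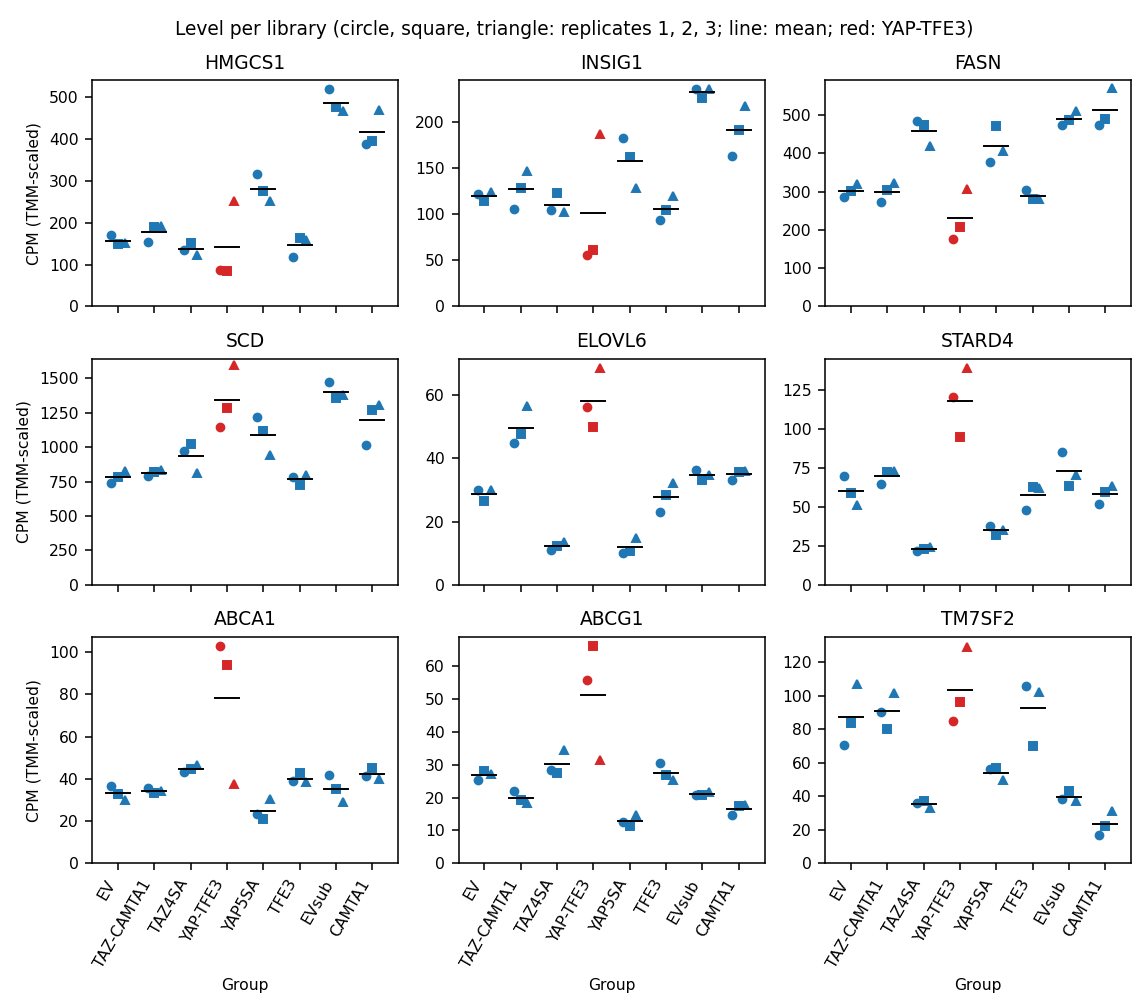
TMM-scaled CPM of 9 genes (panels, vertical axes starting at 0) in each library by group, with circle, square and triangle for replicates 1, 2 and 3, a line for the group mean, and YAP-TFE3 in red. HMGCS1 and INSIG1 are highest in EVsub, ELOVL6 and STARD4 are low in libraries labelled TAZ4SA and YAP5SA and high in YAP-TFE3, and in ABCA1 and ABCG1 the first 2 YAP-TFE3 libraries lie above the third.

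In the fatty acid branch, the enzymes from citrate to palmitate rose in sub-confluent cells, in libraries labelled TAZ4SA and in YAP5SA. FASN (ENSG00000169710, chr17:82078338-82098294, - strand), the fatty acid synthase, was measured at 285, 301 and 319 CPM in EV, 483, 475 and 419.6 CPM in libraries labelled TAZ4SA, 377, 472 and 405 CPM in YAP5SA and 473, 486 and 510.0 CPM in EVsub. Each of these groups lay wholly above EV, and FASN rose in libraries labelled TAZ4SA (log2 fold change 0.61 ± 0.13 (SE), adjusted p = 0.000599), YAP5SA (log2 fold change 0.47 ± 0.13 (SE), adjusted p = 0.00596) and EVsub (log2 fold change 0.70 ± 0.13 (SE), adjusted p = 0.00031). The YAP5SA call was lost with scaling to total counts. In YAP-TFE3, FASN stood at 177, 209 and 307 CPM and fell (-0.39, adjusted p = 0.0196; without replicate 3, -0.65), but the third library lay within the EV range and the call was lost with the compared groups alone and without EV replicate 3 or YAP-TFE3 replicate 1 or 2.

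ACLY and ACACA stand just before FASN. ACLY, the ATP citrate lyase, was measured at 354, 380.2 and 403 CPM in EV and 577, 594 and 501 CPM in YAP5SA, which did not overlap, and rose there (log2 fold change 0.56 ± 0.092 (SE), adjusted p = 2.74e-05), in libraries labelled TAZ4SA (0.42) and in EVsub (0.38). ACACA, the cytosolic acetyl-CoA carboxylase, rose in YAP5SA (0.39, adjusted p = 0.000224) and EVsub (0.37, adjusted p = 0.000608). Its TAZ4SA estimate was 0.18, adjusted p = 0.0496, just past the threshold, and became -0.015 with scaling to total counts. That call was also lost with DESeq2 size factors, with a replicate block, with no filter beyond 1 count, with the compared groups alone and without EV replicate 1 or 2 or TAZ4SA replicate 1 or 2.

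Of the 3 desaturases, SCD and FADS1 rose in sub-confluent cells, in YAP5SA and in YAP-TFE3, whereas FADS2 was called higher in none of the comparisons with a control. SCD (ENSG00000099194, chr10:100347233-100364826, + strand) was measured at 741, 784 and 823 CPM in EV, 1474, 1358 and 1375 CPM in EVsub and 1148, 1282 and 1597 CPM in YAP-TFE3. The 3 libraries of EVsub and of YAP-TFE3 were all above the EV libraries, and SCD rose in EVsub (log2 fold change 0.84 ± 0.12 (SE), adjusted p = 1.24e-05), YAP-TFE3 (log2 fold change 0.78 ± 0.12 (SE), adjusted p = 5.94e-06; without replicate 3, 0.63) and YAP5SA (0.48, adjusted p = 0.00174). SCD therefore moved opposite to FASN in YAP-TFE3. FADS1, a desaturase of polyunsaturated fatty acids, rose in libraries labelled TAZ4SA (0.34), YAP-TFE3 (0.36; without replicate 3, 0.23), YAP5SA (0.36) and EVsub (0.56), and its TAZ4SA and YAP5SA calls were lost with scaling to total counts. Its neighbour FADS2, which overlaps it on the opposite strand so that reads of the pair cannot be told apart unless strand was used, fell in YAP-TFE3 (-0.47, adjusted p = 0.0136; without replicate 3, -0.74), a call that was lost with the compared groups alone and without EV replicate 3 or YAP-TFE3 replicate 1 or 2.

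ELOVL6 rose in both fusions and fell in libraries labelled TAZ4SA and in YAP5SA, and was not called in TFE3 or CAMTA1 against their controls. ELOVL6 (ENSG00000170522, chr4:110045846-110199199, - strand), which extends palmitate to stearate, was measured at 29.9, 26.4 and 29.9 CPM in EV, 44.8, 47.7 and 56.3 CPM in TAZ-CAMTA1 and 56, 49.9 and 68.5 CPM in YAP-TFE3. It was measured at 11.1, 12.2 and 13.7 CPM in libraries labelled TAZ4SA and 10, 10.8 and 14.9 CPM in YAP5SA. Both fusions lay wholly above EV, and libraries labelled TAZ4SA and YAP5SA lay wholly below it. ELOVL6 rose in TAZ-CAMTA1 (log2 fold change 0.79 ± 0.14 (SE), adjusted p = 0.000639) and YAP-TFE3 (log2 fold change 1.02 ± 0.14 (SE), adjusted p = 1.38e-06; without replicate 3, 0.88), and fell in libraries labelled TAZ4SA (log2 fold change -1.22 ± 0.14 (SE), adjusted p = 2.14e-07) and YAP5SA (log2 fold change -1.27 ± 0.15 (SE), adjusted p = 1.41e-07). These 4 comparisons share the EV libraries.

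ELOVL5, the elongase of polyunsaturated fatty acids, was measured at 97.1, 97.1 and 92.4 CPM in EV and 165, 164 and 189 CPM in YAP-TFE3. All 3 YAP-TFE3 libraries were far above EV, and ELOVL5 rose (log2 fold change 0.86 ± 0.073 (SE), adjusted p = 1.09e-09; without replicate 3, 0.79). It also rose in EVsub (0.62), YAP5SA (0.28) and TAZ4SA (0.20), where the last 2 calls were lost with scaling to total counts and that of TAZ4SA also with no filter beyond 1 count, with the compared groups alone and without EV replicate 3 or TAZ4SA replicate 2 or 3. In TAZ-CAMTA1 its estimate was 0.22, adjusted p = 0.0824.

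Both genes of sterol efflux rose in YAP-TFE3, and ABCG1 fell in YAP5SA. ABCA1 (ENSG00000165029, chr9:104781006-104928155, - strand), which loads cholesterol onto apolipoprotein A-I, was measured at 36.6, 33 and 30.1 CPM in EV and 103, 93.9 and 37.7 CPM in YAP-TFE3. The first 2 YAP-TFE3 libraries were far above EV and the third just above its highest library, and ABCA1 rose (log2 fold change 1.23 ± 0.22 (SE), adjusted p = 5.38e-05; without replicate 3, 1.56, adjusted p = 7.66e-10). In YAP5SA it stood at 23.2, 21.1 and 30.5 CPM, with an estimate of -0.41, adjusted p = 0.136.

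ABCG1, which passes cholesterol to high-density lipoprotein, was measured at 25.4, 28.2 and 27.1 CPM in EV, 55.7, 66.1 and 31.6 CPM in YAP-TFE3 and 12.7, 11.2 and 14.7 CPM in YAP5SA. Neither group overlapped EV, and ABCG1 rose in YAP-TFE3 (log2 fold change 0.93 ± 0.17 (SE), adjusted p = 7.44e-05; without replicate 3, 1.18) and fell in YAP5SA (log2 fold change -1.06 ± 0.18 (SE), adjusted p = 3.11e-05). In the third YAP-TFE3 library both transporters were lower than in the other two, while INSIG1 and HMGCS1 were higher. Neither transporter was called in any of the other comparisons with a control.

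**Figure D4:**
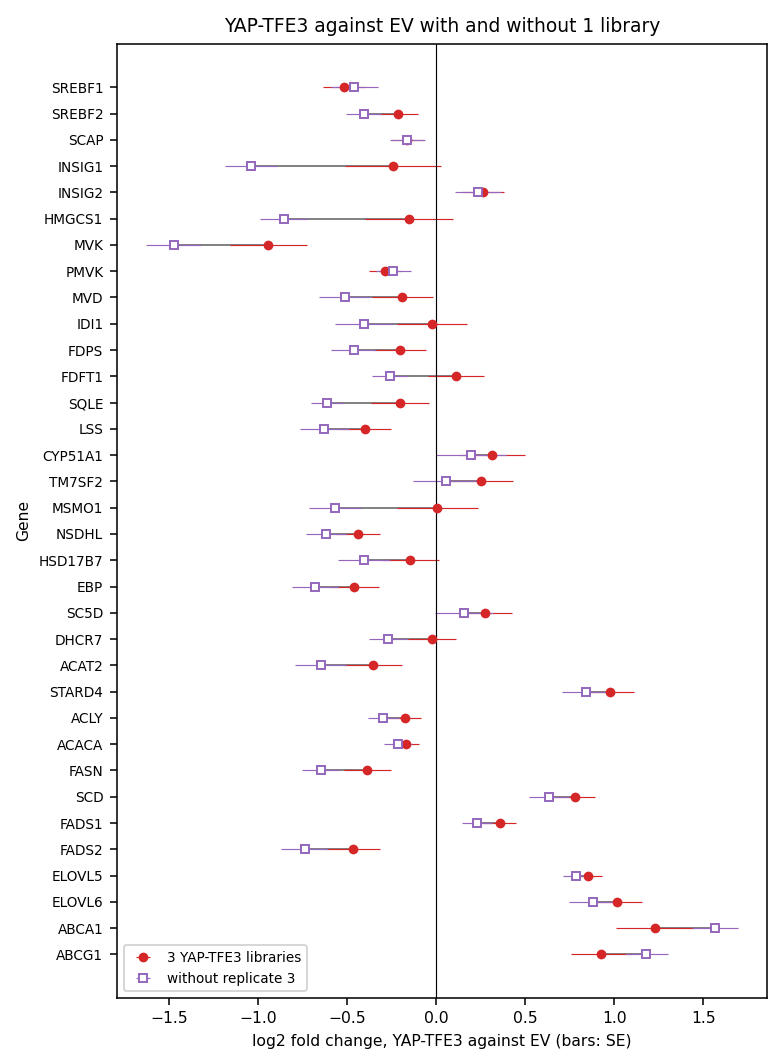
The log2 fold change of each gene in YAP-TFE3 against EV with all 3 YAP-TFE3 libraries (red circles) and without replicate 3 (open purple squares), with SE as bars and a line joining the pair. INSIG1 moves from -0.24 to -1.04 and HMGCS1 from -0.15 to -0.86, while ELOVL5, ELOVL6, SCD and STARD4 stay to the right of 0 in both.

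The fusions were then compared directly with the libraries labelled TAZ4SA, with YAP5SA, with TFE3 and with each other. In TAZ-CAMTA1 against the libraries labelled TAZ4SA, 6 genes were higher and 12 lower, 52.9% of the set against 53.7% of all genes. With scaling to total counts 11 were higher and 5 lower, in a fit that called 37.4% of all genes higher and 18.5% lower. The genes higher in the fusion were led by ELOVL6 (2.01, adjusted p = 5.67e-11), STARD4 (1.60, adjusted p = 1.71e-09) and TM7SF2 (1.36, adjusted p = 1.81e-06), which kept their calls under that scaling. The lower ones were led by FDFT1 (-0.64, adjusted p = 0.00155), FASN (-0.62, adjusted p = 0.00043) and ABCG1 (-0.60, adjusted p = 0.00471), and the ABCG1 call was lost under it.

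In YAP-TFE3 against YAP5SA, 7 genes were higher and 18 lower, 73.5% of the set against 52.4% of all genes. The cholesterol branch had 2 higher and 13 lower, with a median of -0.81 beside 0.049 over all genes, and without replicate 3 the counts were 2 and 14 and the median was -1.06. In all, 26 genes were called in that fit (76.5%, beside 53.6% of all genes). The lower genes were led by MSMO1 (-1.16, adjusted p = 0.000135, and -1.74 without YAP-TFE3 replicate 3) and MVD (-1.16, adjusted p = 3.81e-06, and -1.49 without YAP-TFE3 replicate 3). The higher ones were ELOVL6 (2.28, adjusted p = 5.79e-12, and 2.15 without YAP-TFE3 replicate 3), ABCG1 (1.99, adjusted p = 1.76e-09, and 2.24 without YAP-TFE3 replicate 3), STARD4 (1.76, adjusted p = 2.48e-10, and 1.62 without YAP-TFE3 replicate 3), ABCA1 (1.64, adjusted p = 1.26e-06, and 1.98 without YAP-TFE3 replicate 3), TM7SF2 (0.94, adjusted p = 0.000159, and 0.74 without YAP-TFE3 replicate 3), ELOVL5 (0.58, adjusted p = 4.42e-07, and 0.51 without YAP-TFE3 replicate 3) and SCD (0.30, adjusted p = 0.0319, and 0.16 without YAP-TFE3 replicate 3), and the SCD call was lost with the compared groups alone and without YAP-TFE3 replicate 3 and without YAP5SA replicate 2 or 3. The corresponding values of INSIG1 were -0.64, adjusted p = 0.0515 with all libraries and -1.43, adjusted p = 2.42e-08 without that library.

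Against its other parent, YAP-TFE3 had 9 genes higher and 5 lower than TFE3, 41.2% against 48% of all genes. Without YAP-TFE3 replicate 3 the counts were 7 and 16 (67.6% called, beside 49.5% of all genes), without TFE3 replicate 1 they were 7 and 2 (26.5%, beside 42.9%), with the compared groups alone 9 were called (26.5%, beside 35.9%), and with scaling to total counts the split was 7 and 10 (50%, beside 49.6%). ELOVL6 (1.06, adjusted p = 6.97e-07, and 0.93 without YAP-TFE3 replicate 3), STARD4 (1.04, adjusted p = 8.91e-07, and 0.90 without YAP-TFE3 replicate 3) and ELOVL5 (0.97, adjusted p = 1.29e-10, and 0.90 without YAP-TFE3 replicate 3) led the higher genes, and MVK (-0.87, adjusted p = 0.00167, and -1.40 without YAP-TFE3 replicate 3) led the lower ones.

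Between the fusions, 10 genes were called in TAZ-CAMTA1 against YAP-TFE3, 4 higher and 6 lower, or 29.4% against 42.7% of all genes. ABCG1 (-1.37, adjusted p = 6.33e-07, and -1.62 without YAP-TFE3 replicate 3), ABCA1 (-1.19, adjusted p = 0.000102, and -1.52 without YAP-TFE3 replicate 3), STARD4 (-0.75, adjusted p = 7.5e-05, and -0.62 without YAP-TFE3 replicate 3), SCD (-0.72, adjusted p = 2.11e-05, and -0.58 without YAP-TFE3 replicate 3), ELOVL5 (-0.63, adjusted p = 1.9e-07, and -0.56 without YAP-TFE3 replicate 3) and FADS1 (-0.28, adjusted p = 0.0148, and -0.16 without YAP-TFE3 replicate 3) were lower in TAZ-CAMTA1. The calls of MVK, FADS1, FADS2 and FASN were lost with the compared groups alone. Those of FADS1, FADS2 and FASN were also lost without some single libraries, that of FADS1 without TAZ-CAMTA1 replicate 3 or YAP-TFE3 replicate 3. The FADS1 call was lost with scaling to total counts too. MVK (0.78, adjusted p = 0.00507, and 1.31 without YAP-TFE3 replicate 3), FADS2 (0.46, adjusted p = 0.0174, and 0.73 without YAP-TFE3 replicate 3), SREBF1 (0.43, adjusted p = 0.00595, and 0.37 without YAP-TFE3 replicate 3) and FASN (0.38, adjusted p = 0.0256, and 0.64 without YAP-TFE3 replicate 3) were higher. ELOVL6, called higher than EV in both, had an estimate of -0.23, adjusted p = 0.179, and -0.093 without YAP-TFE3 replicate 3. Without YAP-TFE3 replicate 3, 19 genes were higher and 5 lower in TAZ-CAMTA1 (70.6% called, beside 44.5% of all genes), and with scaling to total counts 13 were higher and 5 lower (52.9%, beside 44.3%).

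Other genes around the pathway were read from lists of sterol and lipid synthesis (19 genes), LXR targets (7 genes) and fatty acid oxidation (18 genes, 17 of them tested). Genes were put on these lists by name, and whether those on the LXR list answer to LXR in these cells was not measured. In EVsub, 11 of the 19 further synthesis genes were higher and 2 lower than in EV (68.4% called, beside 36.8% of all genes), with a median of 0.37, while the oxidation genes were split 3 to 3 (35.3% called) with a median of -0.089. In YAP-TFE3 the synthesis list had 6 higher and 5 lower (57.9% called, beside 48.2% of all genes), led upward by ME1, the malic enzyme that supplies NADPH (1.73, adjusted p = 2.42e-10), and downward by LBR (-0.99, adjusted p = 8.39e-09). Of the oxidation genes, 7 were higher and 2 lower there (52.9% called, near the background), led by ACADM, the medium-chain dehydrogenase (0.75, adjusted p = 0.000186). Of the 7 genes on the LXR list, 3 were higher and 2 lower, with the transporter ABCG2 (2.28, adjusted p = 8.58e-11) and the LXR gene NR1H3 (-0.68, adjusted p = 0.000543) at the ends. Without YAP-TFE3 replicate 3 the counts were 8 higher and 8 lower for synthesis, 6 and 3 for oxidation and 3 and 3 for LXR targets, in a fit that called 49.8% of all genes, and the log2 fold changes of ME1, LBR, ACADM, ABCG2 and NR1H3 were 1.90, -0.96, 0.86, 2.01 and -0.55.

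In YAP5SA, where 44.3% of all genes were called, none of these lists had a higher share. The further synthesis genes had 3 higher and 2 lower (26.3% called). The LXR targets had none higher and 3 lower (42.9%), with NR1H3 at -1.44, adjusted p = 4.58e-08, and the oxidation genes 3 higher and 2 lower (29.4%). In libraries labelled TAZ4SA the counts were 2 higher and 5 lower for synthesis (36.8% called, beside 49.2% of all genes), none higher and 5 lower for LXR targets (71.4%) and 2 to 2 for oxidation (23.5%). In TAZ-CAMTA1, ME1 (0.76, adjusted p = 0.00096) and MID1IP1, an activator of acetyl-CoA carboxylase (0.68, adjusted p = 0.00886), were the synthesis genes that rose. SMPDL3A (0.96, adjusted p = 0.00654) and ABCG2 (0.81, adjusted p = 0.00407) of the LXR list also rose. MID1IP1 and ABCG2 there did not rank highest and were picked with their values in view. In TFE3, edgeR called none of these listed genes. In CAMTA1, LPCAT4 (0.51, adjusted p = 0.0441) and PLTP (-0.56, adjusted p = 0.0152) of the LXR list were called, and no gene of the other lists was.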

How the data were processed

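PolyA RNA of 24 SW872 libraries, 3 in each of 8 groups, was measured with a stranded kit. The authors processed the reads with bcbio-nextgen against hg38 with Ensembl annotation and deposited a table of integer counts per gene for each library. The study's methods also name Salmon pseudo-alignment, summed to genes with tximport. Whether the deposited whole numbers are those values after rounding, and the strand setting, are not given in the sources used here.

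The counts were analysed as deposited. A gene was tested if its counts averaged 5 or more over all libraries, which left 19997 genes. All 24 libraries entered 1 fit with 1 coefficient per group (edgeR 4.0.16, limma 3.58.1, R 4.3.3), with TMM scaling, the quasi-likelihood F test and Benjamini-Hochberg adjustment over all genes tested. A gene was called at an adjusted p under 0.05. CPM are TMM-scaled, and the SE was taken as the log2 fold change over the square root of F.

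The genes and lists were chosen with earlier results of these data known. Every gene of the set is named. Values in every library are given for genes that ranked 1 or 2 by absolute log2 fold change within the cholesterol branch, the fatty acid branch, or the regulators and efflux genes together, in any of the 7 comparisons with a control, among called genes averaging 100 counts or more. Of the other lists, called genes that ranked 1 in either direction could be named, and exceptions are stated. Positions are from GENCODE on GRCh38, and promoters are from RefSeq (GRCh38.p14).

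Pairs of replicates differed by at least 3.67 times sampling noise (chi-square over its degrees of freedom), so no library was counted as a duplicate. The largest value, 83.1, was between YAP-TFE3 replicates 1 and 3. The labels do not say what a replicate number marks, and the libraries with the same number did not deviate together in every pair of any comparison, so numbers were not used to pair libraries. The paper states that its sequencing triplicates came from separate transductions, each then selected. No source says that the replicates were collected on separate days. The p-values thus measure the spread between these separately made lines, which may be partly technical. Total counts were 19700277 to 35287476 per library. Alternatives were DESeq2 size factors, total-count scaling, the DESeq2 1.42.0 Wald test, no filter beyond 1 count, at least 1 CPM in 3 libraries, the compared groups alone, a replicate block and each library left out in turn.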

Additional observations from a re-analysis of the deposited data

Results flagged for a closer look

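Genes called in opposite directions against EV in a fusion and in the construct of its parent are listed here, each with the direct comparison of those 2 groups in the same edgeR fit. A gene was listed only if its direct comparison also had an adjusted p under 0.05. The direct p-values are thus part of the choice and no separate support. The values against EV share the EV libraries.

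In TAZ-CAMTA1 and libraries labelled TAZ4SA, ELOVL6 was the gene that met this, at 0.79 and -1.22 against EV, with a direct log2 fold change of 2.01 ± 0.14 (SE, adjusted p = 5.67e-11).

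In YAP-TFE3 and YAP5SA, 6 genes did. ELOVL6 had a direct log2 fold change of 2.28, from 1.02 and -1.27 against EV. ABCG1 had 1.99, from 0.93 and -1.06. STARD4 had 1.76, from 0.98 and -0.78. EBP had -0.94, from -0.46 and 0.48, NSDHL had -0.89, from -0.44 and 0.45, and FASN had -0.86, from -0.39 and 0.47. Without YAP-TFE3 replicate 3, the direct values of ELOVL6, ABCG1, STARD4, EBP, NSDHL and FASN were 2.15, 2.24, 1.62, -1.16, -1.07 and -1.12. With all libraries, the adjusted p of these direct comparisons lay between 5.79e-12 and 9.28e-06. With scaling to total counts, the calls of EBP and FASN in YAP5SA against EV were lost. With the compared groups alone, without EV replicate 3, or without YAP-TFE3 replicate 1 or 2, the call of FASN in YAP-TFE3 against EV was lost, and that of EBP without YAP-TFE3 replicate 1.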

How the results depend on the processing

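Of 429 values of the 33 group results (11 counts of called genes, 22 branch medians) under other settings, 400 stayed within 1.5 times the count or the spread between replicates, and 29 moved. Apart from what each setting itself changes (fewer libraries or other genes tested), the cause was not tested. The spread used for a median was the larger replicate SD of the groups compared, and in YAP-TFE3 replicate 3 widened it. The cholesterol median of YAP-TFE3 against EV went from -0.15 to -0.46 without replicate 3 and still lay within that spread. Of 148 calls of a gene in a comparison, 106 held in every fit, 110 in every setting with all libraries and 117 in every fit without a library. The estimate of 1 called gene, ACACA in libraries labelled TAZ4SA against EV, reversed to -0.015 with total-count scaling.

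Total-count scaling moved the median of the cholesterol branch to -0.29 and that of the fatty acid branch to 0.031 in libraries labelled TAZ4SA against EV, to 0.24 and 0.00073 in TAZ-CAMTA1 against those libraries, and that of the fatty acid branch to 0.19 in YAP5SA against EV. It gave 2 called genes in CAMTA1 against EVsub (5.88%, beside 1.96% of all genes) and 18 in TAZ-CAMTA1 against YAP-TFE3 (52.9%, beside 44.3%). It shifted the median of all genes by -0.20 to 0.20, and DESeq2 size factors by -0.013 to 0.0077. Fitting the compared groups alone gave 3 in CAMTA1 against EVsub (8.82%, beside 3.24% of all genes) and 9 in YAP-TFE3 against TFE3 (26.5%, beside 35.9%). It gave 6 in TAZ-CAMTA1 against YAP-TFE3 (17.6%, beside 33.4%). The DESeq2 Wald test gave 2 in CAMTA1 against EVsub, and no filter beyond 1 count gave 1 in TAZ-CAMTA1 against EV.

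Leaving out 1 library at a time, the number of called genes ranged from 1 to 2 in TAZ-CAMTA1 against EV, 9 to 15 in libraries labelled TAZ4SA against EV, 11 to 29 in YAP-TFE3 against EV, 0 to 1 in CAMTA1 against EVsub, 9 to 23 in YAP-TFE3 against TFE3 and 8 to 24 in TAZ-CAMTA1 against YAP-TFE3, where the 3 highest of these counts, 29, 23 and 24, came without YAP-TFE3 replicate 3. The cholesterol median ranged from -0.031 to 0.12 in TAZ-CAMTA1 against EV and from -0.099 to 0.057 in TAZ-CAMTA1 against libraries labelled TAZ4SA. In YAP-TFE3 it ranged from -0.46 to -0.0089 against EV, from -1.06 to -0.66 against YAP5SA and from -0.33 to 0.15 against TFE3. In TAZ-CAMTA1 against YAP-TFE3 it ranged from 0.012 to 0.47.

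With a replicate block the numbers called were 2, 13, 15, 23, 0, 1 and 26 in the comparisons with a control (TAZ-CAMTA1, TAZ4SA, YAP-TFE3, YAP5SA, TFE3, CAMTA1, EVsub) and 18, 27, 15 and 10 in the direct ones. In no comparison did all 3 pairs of same-numbered libraries correlate above 0.1, but this cannot show that such libraries shared no batch. The highest mean correlation was 0.13, in TAZ-CAMTA1 against libraries labelled TAZ4SA. Groups of 3 and a depth of 19700277 counts or more limit which small differences could be called.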
